A study of Mus musculus with 2 samples.

Results

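The renin-angiotensin system is a hormone cascade that sets blood pressure and salt balance. Renin cuts angiotensinogen to angiotensin I, angiotensin-converting enzyme turns this into angiotensin II, and angiotensin II acts through cell-surface receptors, among them receptors of cardiac muscle and fibroblasts. The hormonal form of vitamin D, acting through the vitamin D receptor (VDR), is known to lower renin gene transcription in kidney cells, and mice without VDR have raised renin. VDR is a nuclear receptor that binds DNA, mostly with a retinoid X receptor as partner, at pairs of short half-sites.

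Binding of VDR was examined at 8 genes of this system: the precursor gene Agt, the enzyme genes Ren1 and Ace, the receptor genes Agtr1a, Agtr1b, Agtr2 and Mas1, and Atp6ap2, which codes for the prorenin receptor. These are 8 of 49718 genes placed on the assembled chromosomes in the RefSeq table used here. They were chosen by name, and a VDR peak was assigned to a gene when its summit lay in the gene's span or within 50 kb of either end. The material was left ventricle of mouse embryos at E16.5, from mothers on a normal diet in 1 library and from mothers on a diet lacking vitamin D in the other. The labels name no strain or genotype and do not give the number of mothers or embryos behind a library. DNA bound by VDR was recovered by chromatin immunoprecipitation and sequenced, and the authors deposited 1 list of peaks per library. With 1 library per diet there is no replicate check and no test between diets, so every comparison below describes the libraries and not the diets. A list of binding sites holds no expression values, so the tissue label was not checked against marker genes.

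Of the 23456 normal-diet peaks, 16 had their summit within 50 kb of these genes, and of the 37661 deficient-diet peaks, 23 did. Each peak is given with its pileup, which is the number of DNA fragments over its summit, and with the background, the number expected there. Both were recovered from the fold enrichment and the -log10 p that the authors deposited. The deposited -log10 q is the -log10 of the p-value adjusted for multiple testing. It is the authors' value and serves here only to rank peaks within a list. The lowest background of the normal-diet list was 2.65 fragments, and that of the deficient-diet list was 5.38 fragments, 2.03 times as many. The files hold no read totals, so the depth of the libraries is unknown.

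The data nearest to a start site came from Ace, which has 2 annotated starts in the RefSeq promoter table (build GRCm38.p6, the same as mm10). The normal-diet list and the deficient-diet list each had a peak at one of them, and not at the same one. Both promoter windows, from 250 bases before the start to 50 bases after it, are shown because they carry this difference. The share of all promoter windows with a peak this near was not counted, so the difference is no result about Ace. Capitals mark the TATAAA box of the first window, read on the reverse strand, and the bases covered by the normal-diet peak in the second. Both are on the plus strand, chr11:105967698-105967997 and chr11:105974939-105975238.
Ace first start: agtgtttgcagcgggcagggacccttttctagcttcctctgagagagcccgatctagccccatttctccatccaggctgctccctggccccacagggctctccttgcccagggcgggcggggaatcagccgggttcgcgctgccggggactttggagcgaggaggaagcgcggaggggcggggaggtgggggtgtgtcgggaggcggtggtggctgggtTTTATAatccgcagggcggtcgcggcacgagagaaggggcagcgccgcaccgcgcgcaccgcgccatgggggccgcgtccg
Ace second start: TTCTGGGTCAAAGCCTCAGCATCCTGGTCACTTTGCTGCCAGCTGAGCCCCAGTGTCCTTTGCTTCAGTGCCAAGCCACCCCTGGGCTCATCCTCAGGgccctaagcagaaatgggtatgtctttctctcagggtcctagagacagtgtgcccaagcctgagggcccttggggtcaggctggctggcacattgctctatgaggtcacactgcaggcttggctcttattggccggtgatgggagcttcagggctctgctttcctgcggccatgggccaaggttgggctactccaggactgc

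At the first start of Ace, the deficient-diet list had a peak from 105967494 to 105967690 on chromosome 11, with its summit 331 bp upstream of the start. The peak ended 7 bp short of the printed window. It had a pileup of 21 fragments over a background of 5.38 and a -log10 q of 3.95, reached by 60.0% of its list. The nearest normal-diet summit was the one at the second start, 7368 bp away. At the second start, the normal-diet peak ran from 105974840 to 105975036, with its summit 204 bp upstream of that start, and covered 98 bases of the printed window. Its pileup was 17 fragments over a background of 2.65, and its -log10 q was 5.51. A shorter form of angiotensin-converting enzyme, known from testis, is made from a start inside the gene. The promoter table does not name the transcript that starts at the second window. Both summits also lay inside the span of Gm11651, a predicted gene that overlaps Ace.

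The promoter windows were searched on both strands for 4 nuclear receptor half-sites, for direct repeats of any of them with 3 bases between, for the E-box CACGTG and for the TATAAA box. The half-site AGGTCA stood in 16.3% of all windows in the table, while GGGTCA stood in 13.7%. The third, AGTTCA, was found in 14.0% of windows, and the fourth, spelled GGTTCA, in 10.4%. A half-site that is part of a repeat was counted under both. The second Ace window held 3 half-sites: GGGTCA at bases 5 to 10, inside the peak, GGGTCA again at bases 171 to 176, and AGGTCA at bases 201 to 206, both outside it. Bases are counted from 1 at the 5′ end of the window. The first Ace window held no half-site. Of all 32851 promoter windows of the same 300 bp length, 43.7% held at least 1 of the 4 half-sites, so a half-site in a window is common. Among the 8 windows of 7 of the genes, 3 held a half-site: those of Ren1, Agtr1b and the second start of Ace. None held a direct repeat, which 0.0396% of all windows did, or the E-box, which 7.15% did. TATAAA was found in 4 windows, those of Ren1, Agt, Agtr1b and the first start of Ace, and in 13.6% of all windows. A match describes the letters and is not a measured site, and Agtr1a had no window in the table.

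**Figure D1:**
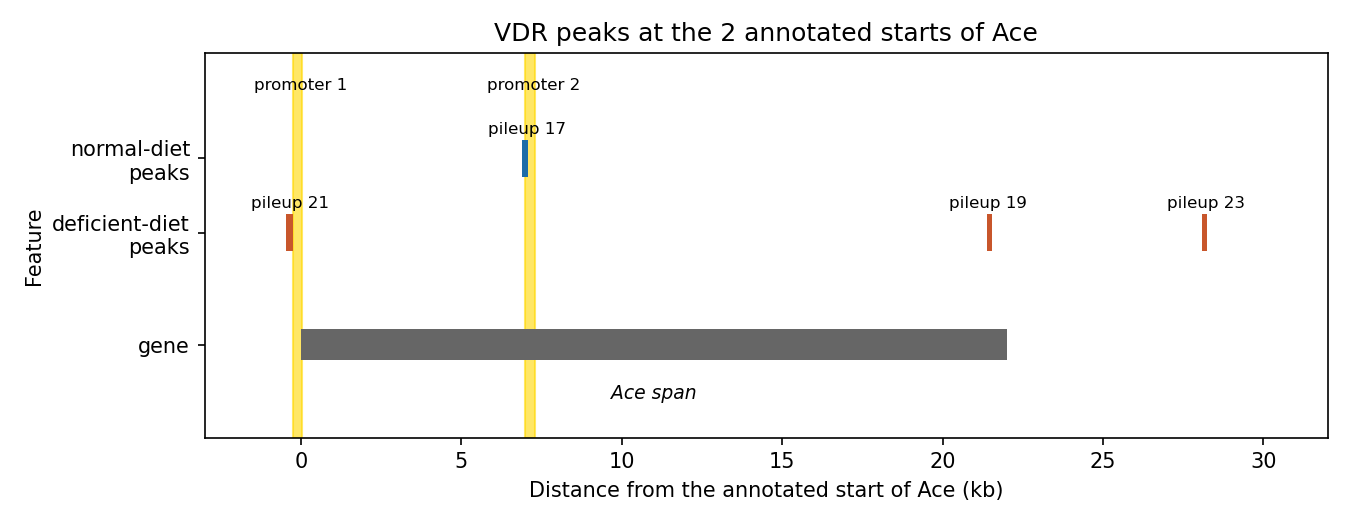
Peaks around Ace, by distance from its annotated start (kb). The gray bar is the gene span, the yellow bands are the promoter windows, and the colored blocks are normal-diet and deficient-diet peaks with their summit pileup in fragments. The deficient-diet peak with a pileup of 21 lies beside the first window, and the normal-diet peak with a pileup of 17 overlaps the second.

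Peaks lay within 50 kb of most of the 8 genes, in proportions close to those of other genes. A normal-diet peak was found at 6 of 8 genes (75%), where 74.6% of 21843 protein-coding genes had one. A deficient-diet peak was found at 7 of 8 (87.5%), where 83.1% of protein-coding genes had one. The 6 genes with a normal-diet peak all had a deficient-diet peak as well, and 69.2% of protein-coding genes had both. Atp6ap2 had neither, as did 11.4% of protein-coding genes. Shares so near those of all genes are not a result about the renin-angiotensin genes. The median gene of the 8 had 2 normal-diet and 2.5 deficient-diet peaks, against 2 and 3 for all protein-coding genes. The median span of the 8 was 25655 bp against 17187 bp, so their search windows were longer.

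**Figure D2:**
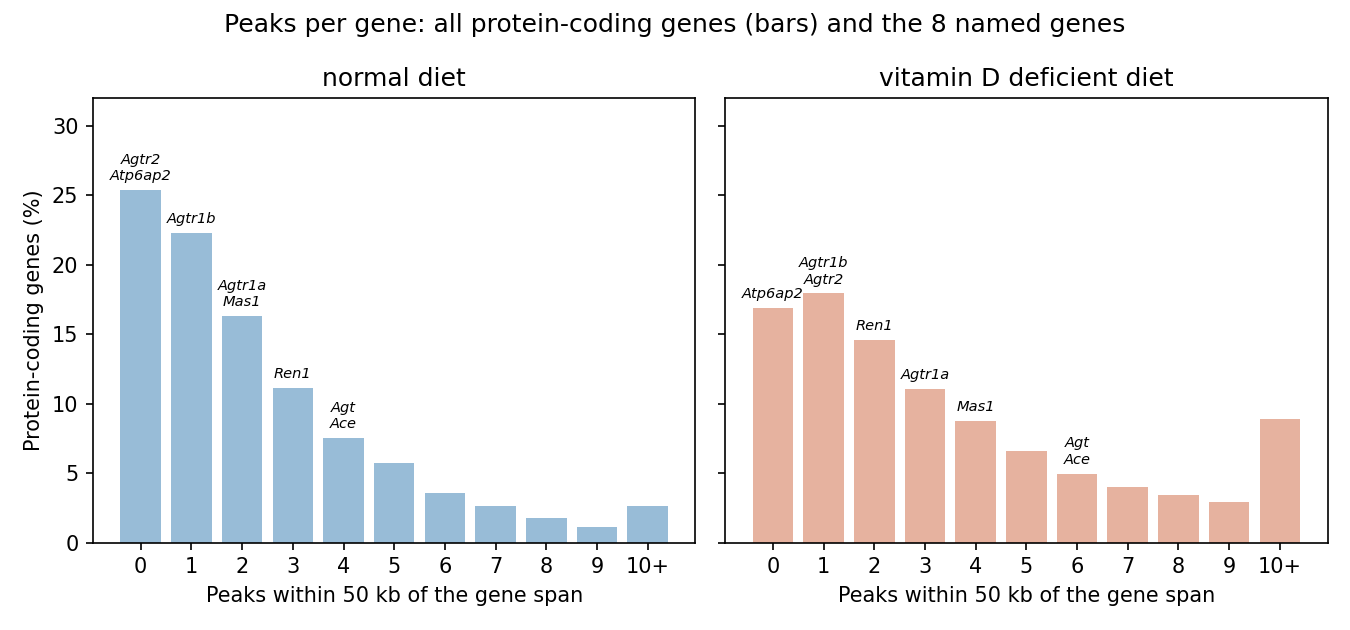
Share of protein-coding genes (%) by the number of peaks within 50 kb of the span, for the normal-diet list (left) and the deficient-diet list (right). Bars stand for all 21843 protein-coding genes, and each of the 8 genes is named above the bar it belongs to. The 8 genes are spread from 0 to 4 normal-diet peaks and from 0 to 6 deficient-diet peaks.

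A site was counted as shared where peaks of both lists had 1 bp or more in common. There were 5 shared sites, 1 each at Agt, Ace, Agtr1a, Agtr1b and Mas1. They made up 5 of 16 normal-diet peaks, 31.3% (exact 95% binomial interval 11.0 to 58.7%), and 5 of 23 deficient-diet peaks, 21.7% (7.46 to 43.7%). Over the whole lists the shares were 34.0% and 21.3%, inside those intervals. A shared site was thus present at 5 of 8 genes (62.5%), against 43.2% of protein-coding genes. Of the 5 sites, 1 lay inside one of the genes, at Agtr1a. These intervals, like those on pileups below, cover counting error only. The intervals on shares are wide and count peaks at the same gene as independent, so no conclusion is drawn from them.

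**Figure D3:**
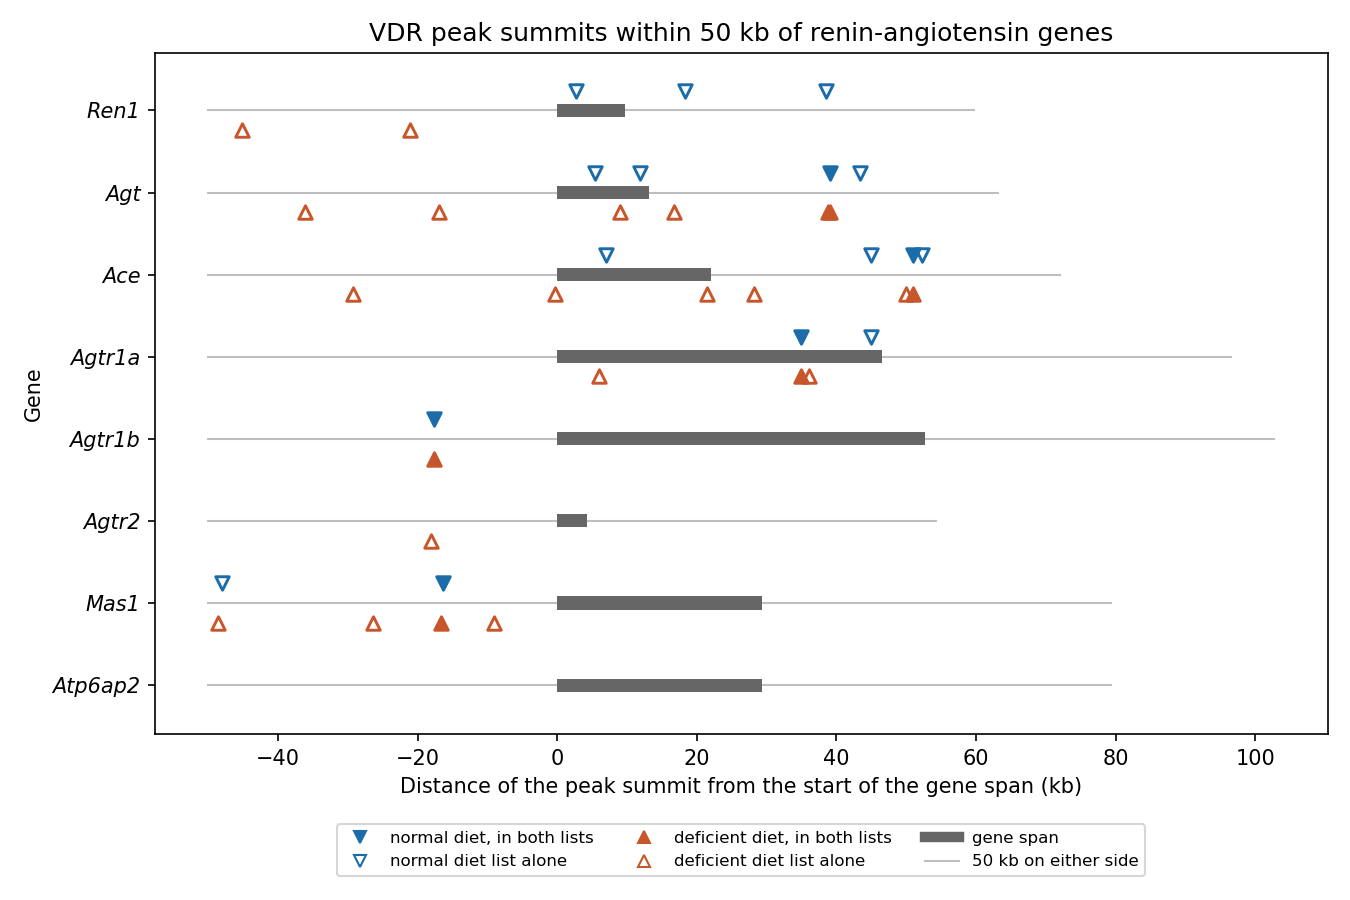
Positions of peak summits around each gene, in kb from the start of the gene span, in the direction of transcription (Agtr1a is drawn from its lower coordinate). Downward triangles are normal-diet summits and upward triangles deficient-diet summits, filled where the peak is in both lists. Filled pairs appear at Agt, Ace, Agtr1a, Agtr1b and Mas1, while Ren1 has open symbols alone and Atp6ap2 has none.

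Agt codes for angiotensinogen, the only precursor of the angiotensins, and lies on chromosome 8 from 124556587 to 124569706 on the minus strand. It had 4 normal-diet and 6 deficient-diet peaks. The shared site lay 3′ of the gene, inside Cog2, which codes for a subunit of a Golgi complex. The normal-diet peak there ran from 124530546 to 124530754, with a pileup of 19 fragments over 2.65 and a -log10 q of 6.98, a value reached by 12.3% of its list. The deficient-diet peak ran from 124530482 to 124530750, with 21 fragments over 5.38 and a -log10 q of 3.95, reached by 60.0% of its list. The summits were 39 bp apart and 25920 and 25959 bp from the gene. This was the highest -log10 q among the normal-diet peaks of the 8 genes.

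Inside Agt, the lists had peaks at different places. The normal-diet list had summits 5391 bp and 11811 bp downstream of the start, with pileups of 17 and 13 fragments over 2.79 and 2.65. The deficient-diet list had 1 summit, 8968 bp downstream of the start, with 20 fragments over 6.79. No summit of the 3 was closer than 2843 bp to one of the other list. A further deficient-diet summit lay 3606 bp past the 3′ end of the gene, between Agt and Cog2, with 23 fragments over 5.38.

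The other peaks within 50 kb of Agt lay in neighboring genes. On the 3′ side, inside Cog2, the normal-diet list had a summit 30272 bp from the gene with 14 fragments. The deficient-diet list had one 25616 bp away with 17 fragments, 91 bp clear of the shared normal-diet peak. On the 5′ side, 16935 and 36166 bp upstream, 2 deficient-diet summits lay inside Capn9, a calpain protease gene, with 19 and 20 fragments.

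Ren1 codes for renin, whose cleavage of angiotensinogen is the rate-limiting step of the cascade, and lies on chromosome 1 from 133350674 to 133360320 on the plus strand. It had 3 normal-diet and 2 deficient-diet peaks and none in common. The normal-diet list had a peak inside the gene, from 133353262 to 133353490, with its summit 2728 bp downstream of the start. This peak had a pileup of 19 fragments over a background of 3.33 and a -log10 q of 5.55, a value reached by 23.2% of the list. The other normal-diet summits lay downstream, 8641 bp past the gene inside Etnk2, an ethanolamine kinase gene, with 17 fragments, and 28849 bp past it inside Sox13, a transcription factor gene, with 16.

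The deficient-diet summits at Ren1 both lay upstream of the gene, while the normal-diet ones lay inside it or downstream. One was 21146 bp from the start, inside Kiss1, which codes for the precursor of kisspeptin, with 23 fragments over 5.82 and a -log10 q of 4.36. The other, 45134 bp from the start, was outside gene spans, 2105 bp from Plekha6, with 21 fragments over 5.82 and a -log10 q of 3.57. The closest pair of summits from the lists was 23874 bp apart, between the peak in Kiss1 and the peak inside Ren1. The promoter window of Ren1 was not covered by a peak of either list. The nearest normal-diet peak was 2538 bp from it and the nearest deficient-diet peak 20779 bp. The window held a TATAAA box and 1 half-site, GGTTCA on the reverse strand at bases 275 to 280.

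Ace codes for angiotensin-converting enzyme, which makes angiotensin II and also breaks down bradykinin, and lies on chromosome 11 from 105967948 to 105989964 on the plus strand. It had 4 normal-diet and 6 deficient-diet peaks. Besides the peaks at its starts described above, the deficient-diet list had a summit inside the gene, 585 bp before its 3′ end, with 19 fragments over 5.82. Ace was the 1 gene of the 8 with a deficient-diet summit within 1 kb of an end, against 21.9% of protein-coding genes. No gene of the 8 had a normal-diet summit there, against 18.6%.

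The other peaks around Ace lay in nearby genes. The shared site was inside Kcnh6, a potassium channel gene overlapped by the predicted gene Gm35971, where the normal-diet peak ran from 106018809 to 106019014 and the deficient-diet peak from 106018782 to 106018988. Pileups there were 16 fragments over 3.02 and 23 over 6.13, with summits 129 bp apart and 29016 and 28887 bp past the end of Ace. Kcnh6 also held normal-diet summits 22966 and 30286 bp past Ace, with 16 and 15 fragments, and a deficient-diet summit 27981 bp past it, with 19. Of these, the first had a background 1.77 times the lowest of its list, the highest among the peaks within 50 kb of the 8 genes, and a -log10 q of 2.56. The deficient-diet list also had a summit 6204 bp past Ace, inside the related gene Ace3, with 23 fragments over 5.38. A last one lay 29255 bp upstream, inside Cyb561, a cytochrome gene, with 20 fragments.

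Agtr1a codes for the main type 1 angiotensin II receptor of the mouse, the receptor behind vessel constriction and growth effects in the heart. It lies on chromosome 13 from 30336356 to 30382867. All of its peaks, 2 normal-diet and 3 deficient-diet, lay inside the span. At the shared site, the normal-diet peak ran from 30371126 to 30371313 and the deficient-diet peak from 30371113 to 30371365, with summits 3 bp apart. The normal-diet pileup was 20 fragments over 3.42, with a -log10 q of 6.10, reached by 21.7% of that list. The deficient-diet pileup was 37 fragments over 7.76, with a -log10 q of 9.51, reached by 1.60% of that list. This deficient-diet peak had the highest pileup near the 8 genes and was the only one in the top 10% of its list by -log10 q. Its background was 1.44 times the lowest of the deficient-diet list. Backgrounds differ between the lists, and over background this peak came to 4.77, below the 5.84 of its normal-diet partner.

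The other summits inside Agtr1a were not shared. The normal-diet list had one 1556 bp from the upper end of the span, with 16 fragments over 2.65. The deficient-diet list had one 1147 bp from the shared normal-diet summit, with 26 fragments over 6.79, and one 5993 bp from the lower end, with 19 fragments over 5.38. Outside the span, no peak of either list lay within 50 kb.

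Agtr1b codes for the second type 1 receptor of rodents and lies on chromosome 3 from 20314473 to 20367177 on the minus strand. It had 1 peak in each list, and they formed a shared site upstream of the gene, outside gene spans. The normal-diet peak ran from 20384682 to 20385018 and the deficient-diet peak from 20384682 to 20385008. Their summits were 73 bp apart, 17620 and 17693 bp upstream of the start, with pileups of 15 fragments over 3.02 and 22 over 5.82. Both had their -log10 q, 3.74 and 3.96, in the range of most peaks of their lists: 69.7% and 48.3% of peaks reached these values.

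Agtr2 codes for the type 2 angiotensin II receptor, which is abundant in fetal tissue and opposes many effects of type 1 receptors. It lies on X from 21484624 to 21488833 on the plus strand. Its 1 peak was in the deficient-diet list, from 21466537 to 21466727, outside gene spans and 18031 bp upstream of the start, with 23 fragments over 5.38. The nearest normal-diet summit to the gene was 223175 bp away.

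Mas1 codes for the Mas receptor, which responds to angiotensin-(1-7), a cleavage product with effects opposed to those of angiotensin II. It lies on chromosome 17 from 12838841 to 12868150 on the minus strand. Its 2 normal-diet and 4 deficient-diet summits were all upstream of the gene. At the shared site, outside gene spans, the normal-diet peak ran from 12884315 to 12884586 and the deficient-diet peak from 12884507 to 12884906. They overlapped by 80 bp at their edges, with summits 327 bp apart, 16302 and 16629 bp upstream of the span. Pileups were 14 fragments over 3.42 and 24 over 5.52. The normal-diet value was among the weaker ones, with a -log10 q of 2.81 that 95.7% of the list reached, and the deficient-diet value was 5.24, reached by 23.8%.

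The remaining Mas1 summits lay farther out or in neighbors. The deficient-diet list had one 9120 bp upstream inside Mrgprh, another gene of the Mas-related receptor family, with 22 fragments, and one 26335 bp upstream inside Pnldc1, with 21. Inside Mrpl18, a mitochondrial ribosomal protein gene, the lists had summits 484 bp apart without overlap, 48079 bp upstream with 15 fragments for the normal diet and 48563 bp upstream with 23 for the deficient diet. The deficient-diet summit also lay inside the span of Tcp1, which overlaps Mrpl18 there.

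Atp6ap2 codes for the prorenin receptor, which is also an accessory subunit of the vacuolar proton pump, and lies on X from 12587759 to 12617051 on the plus strand. It had no peak within 50 kb, and the nearest summits were 452503 bp away in the normal-diet list and 335029 bp away in the deficient-diet list. Both genes of the 8 that lie on X thus had few or no peaks. Among 966 protein-coding genes on X, 29.5% had a normal-diet peak and 48.0% a deficient-diet peak within 50 kb, and 44.3% had neither.

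Heights over background were compared at the shared sites. At Agt, the pileup divided by its background came to 7.16 in the normal-diet library (95% Poisson interval of the pileup 4.31 to 11.2) and 3.90 in the deficient-diet library (2.41 to 5.96). At Agtr1a it was 5.84 (3.57 to 9.02) and 4.77 (3.36 to 6.57). At Ace it was 5.30 and 3.75, at Agtr1b 4.97 and 3.78, and at Mas1 4.09 and 4.35. The intervals overlapped at 5 of 5 sites. The normal-diet ratio was the higher at 4 of them, with Mas1 the exception. Over the whole lists, the median fold enrichment was also higher in the normal-diet list, 4.38 against 3.45. The 4 sites are thus no result about these genes. The lists also differ in the lowest ratio called. At the lowest background, it was 4.14 in the normal-diet list (a pileup of 11) and 2.97 in the deficient-diet list (a pileup of 16).

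**Figure D4:**
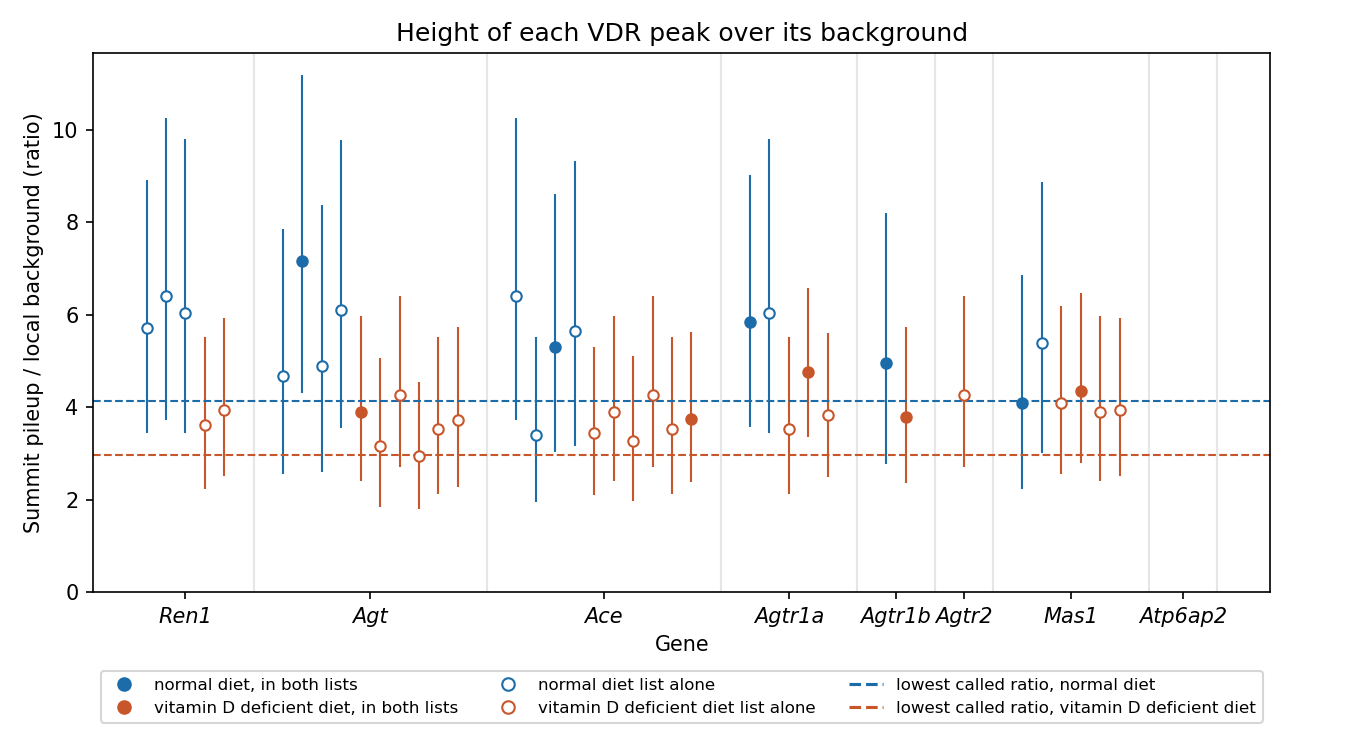
Ratio of summit pileup to local background for each peak near the 8 genes, with 95% Poisson intervals of the pileup (counting error only). Blue is the normal diet and orange the vitamin D deficient diet, filled where the peak is in both lists. Dashed lines mark the lowest ratio called at the lowest background of each list, 4.14 and 2.97. Most orange points lie between the dashed lines, and the blue points reach from 3.40 to 7.16.

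The peaks found in 1 list alone were set beside these lowest ratios. Of the 18 deficient-diet peaks without a partner, 15 had a ratio under 4.14, below any that was called at the lowest background of the normal-diet library. The 3 others, each at 4.27, were the peak past the 3′ end of Agt, the peak in Ace3 and the peak upstream of Agtr2. Deficient-diet peaks with a partner were also under 4.14 at Agt (3.90), Ace (3.75) and Agtr1b (3.78). Those at Agtr1a (4.77) and Mas1 (4.35) were above it. The share under 4.14 over the whole deficient-diet list was not counted, so 15 of 18 is no result about these genes. The 11 normal-diet peaks without a partner had ratios from 3.40 to 6.41, all above 2.97. They include the peaks inside Ren1 (5.71), inside Agt (6.10 and 4.90), at the second start of Ace (6.41) and near the upper end of Agtr1a (6.03). Normal-diet peaks with a partner, from 4.09 at Mas1 to 7.16 at Agt, were above 2.97 as well. The normal-diet list called none under 4.14 at its lowest background, so this was largely set in advance and nothing is concluded from it. The value of 4.14 is no fixed limit: over a higher background, the normal-diet list called a peak past Ace at 3.40. A missing partner shows that no peak was called there, not that VDR was absent. Why these peaks lack a partner was not tested.

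The peaks near the 8 genes were of ordinary strength for their lists. Near the genes, normal-diet peaks had a median -log10 q of 4.57, where their whole list had 4.49. Deficient-diet peaks had a median of 3.95, the same as their list. Median pileups were 16 and 21 fragments, against 16 and 22. Many of these peaks are nearer to another gene: the nearest protein-coding gene was one of the 8 for 7 of the 16 peaks of the normal diet and for 8 of the 23 of the deficient diet. The same share was not counted for other genes, so this is no result about the 8. Inside the spans of the 8 lay 6 normal-diet summits, at 4 genes, and 5 deficient-diet summits, at 3 genes. Of all protein-coding genes, 35.5% had a normal-diet and 43.9% a deficient-diet summit inside their span. The distance limit of 50 kb decides the counts: within 10 kb, 7 and 9 peaks were left, and 1 shared site, at Agtr1a.

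Around this core, 25 other genes of the angiotensin, aldosterone and kinin pathways were listed. They code for enzymes that process or break down angiotensins, for proteins that bind receptors, for steps of aldosterone synthesis and action, and for the kinin system. A normal-diet peak lay within 50 kb of 19 of 25 (76.0%), a deficient-diet peak of 23 (92.0%) and a shared site of 12 (48.0%), where the shares over all protein-coding genes were 74.6%, 83.1% and 43.2%. The 1 gene without a peak in either list was Kng1, a kininogen gene, named after its values were seen.

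The 12 genes with a shared site were Lnpep, Rnpep, Nln, Thop1, Ctsg, Ctsd, Arap1, Nr3c2, Cyp11a1, Cyp21a1, Bdkrb1 and Bdkrb2. Lnpep codes for an aminopeptidase that binds angiotensin IV. Its shared site inside the gene, on chromosome 17, had 19 fragments over 2.65 in the normal-diet list and 25 over 5.38 in the deficient-diet list, with summits 47 bp apart. Nr3c2 codes for the mineralocorticoid receptor, on which aldosterone acts. Its shared site lay 16368 bp outside the gene by the normal-diet summit, also with 19 and 25 fragments, and the summits were 16 bp apart. Bdkrb1 and Bdkrb2, the bradykinin receptor genes, are neighbors and have 1 shared site in common, inside Bdkrb2, with 14 and 22 fragments.

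**Figure D5:**
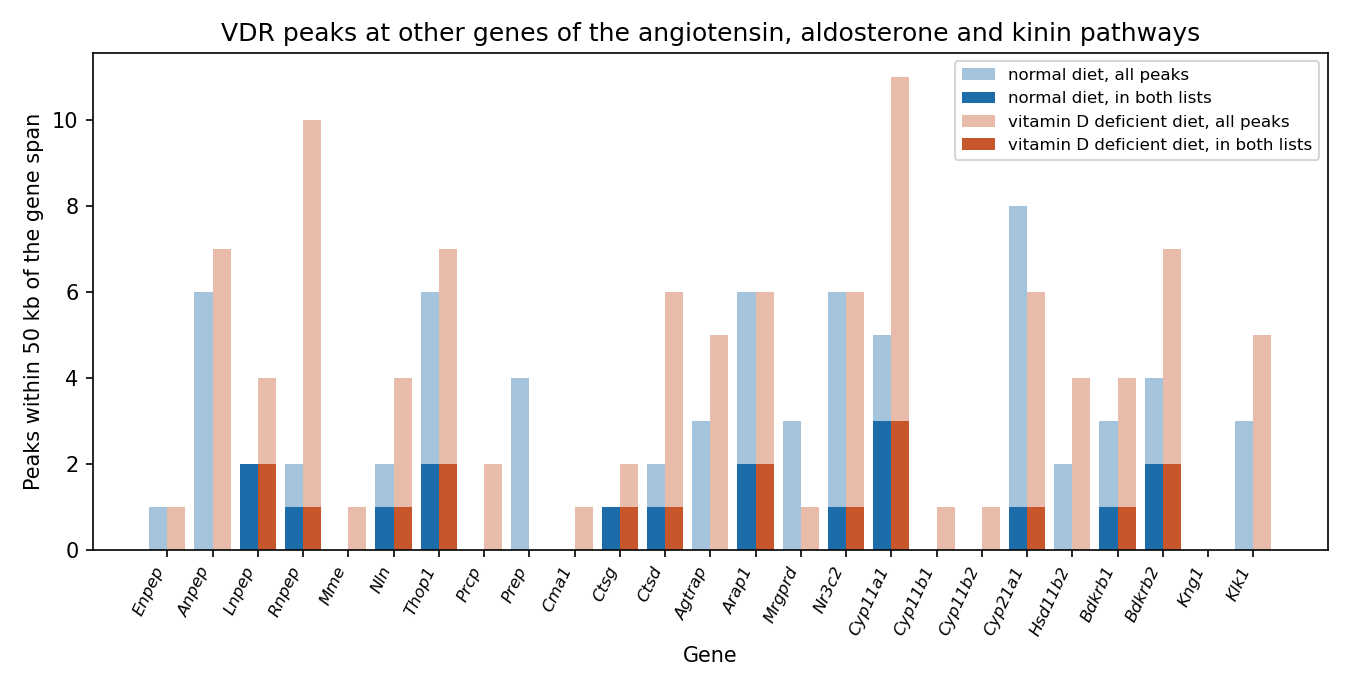
Number of peaks within 50 kb of each of 25 other pathway genes, for the normal diet (blue) and the vitamin D deficient diet (orange), with the peaks found in both lists in the darker shade. Dark bars appear at 12 genes, and Kng1 has no bar.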

How the data were processed

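The authors deposited 1 peak list per library in the narrowPeak layout on mm10, per the file headers. MACS2 and SAMtools are named in the submitters' processing notes, without versions. The aligner, the calling threshold and the control are not given in the sources used here. The deposited values are a fold enrichment (a ratio) at the summit, the -log10 p-value and the -log10 q-value. The normal-diet list joins end and score by a point, and 1 peak without a start was left out.

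From these, the pileup and background were recovered by taking the fold as pileup plus 1 over background plus 1 and p as a Poisson tail. With pileups held to whole numbers, every peak came back within 0.000293 of its deposited -log10 p. Recovery and assignment were tested on simulated data. Summits were placed on RefSeq spans (GRCm38.p6) with Python 3.11.15 and pandas 2.3.3, leaving out genes on alternate sequences. All 8 genes and the 25 and 6 other listed genes matched by symbol. A further item is not reported here. Intervals used scipy 1.17.1.

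Genes and lists were chosen with earlier results of these data known. All peaks of the 8 genes are described. Other listed genes are named where they have a shared site, with values for a few chosen after these were seen. Of genome sequence, only RefSeq promoter windows were used here.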

Additional observations from a re-analysis of the deposited data

How the results depend on the processing

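All alternatives were planned. Shares of all protein-coding genes with a peak of a list were computed at 50 kb and inside the spans, not at the other settings. Counts of genes at those other settings are therefore not a result about the 8 genes. Of 51 recomputed values of 7 counts, 20 stayed within 1.5 times of the count and 31 did not; narrower, wider or stricter settings change counts by construction. With a window of 10 kb, 4 genes had a deficient-diet peak and 1 a shared one, with 7 normal-diet peaks (1 shared) and 9 deficient-diet peaks (1 shared). With 100 kb there were 28 normal-diet peaks (10 shared) and 43 deficient-diet peaks (10 shared). Inside the spans alone, 3 genes had a deficient-diet peak and 1 a shared one, with 6 normal-diet peaks (1 shared) and 5 deficient-diet peaks (1 shared), so the normal-diet list then had more. At a -log10 q of 5 or more, 2 genes had a deficient-diet peak and 1 a shared one, with 6 normal-diet peaks (1 shared) and 2 deficient-diet peaks (1 shared), again more for the normal diet, while over the whole lists 8198 normal-diet peaks (35.0%) and 9146 deficient-diet peaks (24.3%) reached that value. Lists of equal length left 14 deficient-diet peaks, under the 16 of the normal diet. Counting a peak only for its nearest protein-coding gene left 7 normal-diet peaks (2 shared), 8 deficient-diet peaks (2 shared) and 2 genes with a shared peak. Summits within 100 bp gave 3 shared peaks in each list, at 3 genes. No paired analysis was possible because the diets have 1 library apiece, which also bars leaving one out. Read depth is unknown; at the lowest background, no normal-diet peak had a ratio under 4.14 and no deficient-diet peak one under 2.97.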

Other observations

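A further list held 6 genes of transcription factors linked to the control of renin: Creb1, Crem, Nr1h3, Nr1h2, Rbpj and Nr2f2. A normal-diet peak lay within 50 kb of 5 of them and a deficient-diet peak within 50 kb of 4, and 2 had a shared site, which is 83.3%, 66.7% and 33.3% of the list. Over all protein-coding genes the shares were 74.6%, 83.1% and 43.2%. The 2 genes with a shared site were Nr1h2 and Nr1h3, which code for the liver X receptors, nuclear receptors for oxysterols. Inside Nr1h2, the shared site had a pileup of 19 fragments over 2.65 in the normal-diet list and 20 over 5.38 in the deficient-diet list, with summits 118 bp apart. A second shared site, 8290 bp outside the gene by the normal-diet summit, had 16 fragments over 2.65 and 25 over 5.38. The shared site near Nr1h3 lay 44596 bp outside the gene, with 20 fragments over 3.18 in the normal-diet list and 23 over 9.70 in the deficient-diet list. The deficient-diet peak there was among the weakest of its list, with a -log10 q of 2.03 that 99.997% of peaks reached. For the normal-diet peak it was 6.56, reached by 14.1%.

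Among the 25 other pathway genes, Prep, which codes for a peptidase that can cut angiotensins, had 4 normal-diet peaks and no deficient-diet peak within 50 kb. It was singled out after its values were seen. Its highest normal-diet -log10 q was 11.4. Of all protein-coding genes, 24.9% had 4 or more normal-diet peaks within 50 kb, and 16.9% had no deficient-diet peak. The share with both was not counted, so this is no result about Prep.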
